A study of Mus musculus with 6 samples.

Results

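The genes described here are the ligands and receptors of bone morphogenetic protein (BMP) signalling, in RNA from mouse duodenal villus epithelium. They are the ligands *Bmp2*, *Bmp3*, *Bmp4*, *Bmp7*, *Bmp8a* and *Bmp8b*, the type I receptors *Bmpr1a* and *Acvr1* and the type II receptor *Bmpr2*. These 9 genes were taken by name from a table of 20409 features, and the group was selected on the counts of *Bmp8a* and *Bmp8b*, which were lower in double mutant than in wild-type villi. That comparison chose the genes, so their differences between genotypes are given as a description, without p-values.

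Libraries came from 3 wild-type (WT) and 3 double mutant (DM) mice, with 2 females and 1 male in each group. Mouse 1 was the male in both. The double mutant mice carried Villin-CreERT2, floxed *Smad4* on both alleles and a floxed exon 3 in one β-catenin (*Ctnnb1*) allele, on a C57BL6-enriched background. They received tamoxifen at 0.05 g/kg on 4 consecutive days, which removes *Smad4* and makes β-catenin stable, and villi were taken 7 days after induction. Wild-type controls were littermates without tamoxifen, matched for age and sex, so effects of the drug and of the mutations cannot be told apart. They are labelled wild-type, and whether they carried floxed alleles or the Cre transgene is not given in the sources used here. The Villin promoter limits recombination to the intestinal epithelium, and any other cell in the preparation keeps its floxed alleles intact.

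BMP ligands are secreted dimers that bring type I and type II receptors together. The type II receptor phosphorylates the type I receptor, which phosphorylates SMAD1, SMAD5 and SMAD9, and these enter the nucleus with SMAD4. In the small intestine BMP activity is higher along the villus than in the crypt base, where secreted antagonists hold it down, and the mesenchyme under the epithelium is a well known source of ligand. *Id1*, *Id2*, *Id3* and the inhibitory *Smad6* and *Smad7* are classical targets.

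The depth ran from 19678507 to 26337318 counts per mouse, so that 3 counts, the smallest level taken as shown, stood for 0.125 to 0.163 normalized CPM, which is the count scaled to a common library size with edgeR's TMM factors. This covers counting error only. *Smad4* checked the labels, at 26.05 to 36.83 CPM in DM and 119.8 to 180.1 CPM in WT villi, while *Ctnnb1* was counted per gene, so its exon 3 could not be seen (932 ± 53.6 CPM in WT and 841 ± 79.7 CPM in DM villi, SD, n = 3). Epithelial markers took 1.21% to 1.29% of the counts in WT and 1.09% to 1.19% in DM villi. Among 8 tested, *Vil1* and *Krt20* were lower and *Krt19* higher, a share of calls near the 36.8% over all tested genes. WT mouse 1 stood apart from the others, since its Pearson correlation with them across the tested genes was 0.957 and 0.958, against 0.984 between mice 2 and 3, and goblet cell markers took 0.0129% of its counts against 1.42% and 1.46%. The lowest value of Paneth cell markers was also in this mouse (0.000721%, against 0.0843% and 0.143%), while the DM mice had 0.524% to 0.595% for goblet and 0.0165% to 0.0259% for Paneth markers. None of the 7 goblet and 5 Paneth markers passed edgeR's test (0 of either at an unadjusted p under 0.05), while DESeq2 called 0 goblet and 1 Paneth marker.

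*Bmp8a* and *Bmp8b* are neighbouring paralogs, and their counts depend on reads that can tell them apart. *Bmp8b* (ENSMUSG00000002384) lies on the plus strand of mm9 at chr4:122782408-122809342 and *Bmp8a* (ENSMUSG00000032726) on the minus strand at chr4:122989888-123020495, so that the genes point at each other across 180.5 kb. Each has 7 exons in the transcripts compared, and both coding sequences are 1200 bases long. They were identical at 1056 positions (88.0%) without a gap. The longest run shared by the whole transcripts was 182 bases, and 33 of 1768 windows of 150 bases in *Bmp8a* (1.87%), the length of 1 read, occurred unchanged in *Bmp8b*. In the other direction this was 33 of 2791 windows (1.18%).

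The run of 182 identical bases covers positions 451 to 632 of the coding sequence, counted from its first base, in exons 2 and 3 (mm9 chr4:123001836-123002406 for *Bmp8a* and chr4:122791936-122792505 for *Bmp8b*, introns included). It is shown because all 33 shared windows of 150 bases lie inside it, so that a read within it does not identify its gene:
Bmp8a: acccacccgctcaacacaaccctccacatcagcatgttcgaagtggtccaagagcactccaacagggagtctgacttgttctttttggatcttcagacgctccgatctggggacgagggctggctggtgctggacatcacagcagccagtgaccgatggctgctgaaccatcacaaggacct
Bmp8b: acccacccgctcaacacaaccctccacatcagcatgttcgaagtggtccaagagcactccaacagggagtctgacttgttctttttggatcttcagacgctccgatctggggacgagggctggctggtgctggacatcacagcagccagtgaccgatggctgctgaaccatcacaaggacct

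The least alike stretch of 120 bases, positions 1045 to 1164 in exons 6 and 7 (mm9 chr4:122990546-122993092 for *Bmp8a* and chr4:122800295-122801744 for *Bmp8b*), falls near the end of the coding sequence, in the part for the mature ligand. Capitals mark the 28 of 120 bases at which the genes differ, which is where a read identifies its gene:
Bmp8a: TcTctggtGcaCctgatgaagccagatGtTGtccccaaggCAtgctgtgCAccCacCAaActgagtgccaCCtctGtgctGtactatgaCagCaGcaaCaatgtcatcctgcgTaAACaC
Bmp8b: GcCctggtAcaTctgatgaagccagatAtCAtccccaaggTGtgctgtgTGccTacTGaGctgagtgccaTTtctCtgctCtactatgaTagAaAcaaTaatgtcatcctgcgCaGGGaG

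**Figure D1:**
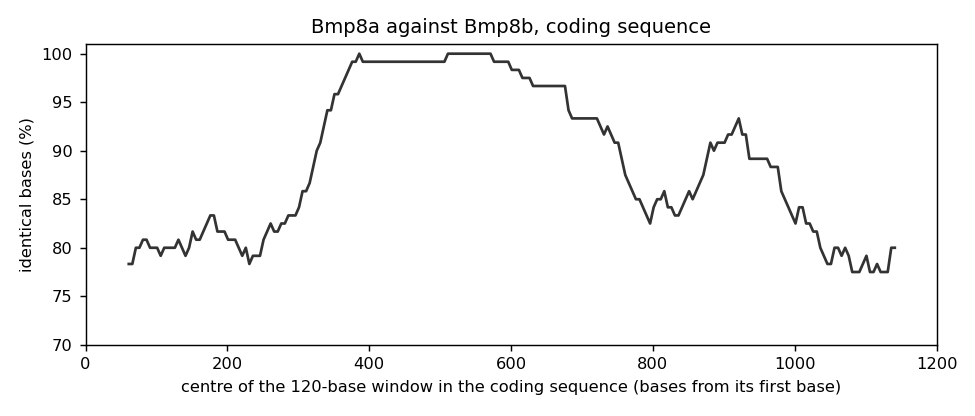
Identity of the coding sequences of *Bmp8a* and *Bmp8b* in windows of 120 bases; the horizontal axis gives the window's centre in bases from the start of the coding sequence and the vertical axis, which begins at 70%, the percentage of identical bases. Identity reached 100% in 69 of 1081 windows, most of them in the run of 182 bases. It was lowest near the end of the coding sequence, where 92 of 120 bases were identical.

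The promoters of both genes are shown because the genes were low together. Each line is the 250 bases before the annotated start, from RefSeq (GRCm38.p6), located in mm9 by an exact match at chr4:123020496-123020745 on the minus strand for *Bmp8a* and chr4:122782154-122782403 on the plus strand for *Bmp8b*. Capitals mark the matches to the motifs searched on both strands, which were the SMAD-binding core CAGAC, the palindromic SMAD box GTCTAGAC, the GC-rich SMAD1/5 element GGCGCC, and the TCF/LEF site as CTTTGAT or CTTTGAA:
Bmp8a: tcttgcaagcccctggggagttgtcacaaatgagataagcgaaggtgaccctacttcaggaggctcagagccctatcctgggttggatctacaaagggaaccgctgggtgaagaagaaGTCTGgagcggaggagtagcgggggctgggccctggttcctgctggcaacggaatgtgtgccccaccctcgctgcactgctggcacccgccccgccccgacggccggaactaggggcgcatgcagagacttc
Bmp8b: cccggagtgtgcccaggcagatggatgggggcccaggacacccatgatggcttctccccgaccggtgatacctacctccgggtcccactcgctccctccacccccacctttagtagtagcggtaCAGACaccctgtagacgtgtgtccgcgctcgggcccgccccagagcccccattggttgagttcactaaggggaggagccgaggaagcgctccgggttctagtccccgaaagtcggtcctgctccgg

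Each promoter held 1 CAGAC core, first base 132 bases before the start in *Bmp8a*, on the opposite strand, and 126 bases before it in *Bmp8b*. This core occurred in 42.2% of 32851 promoter windows of the same length, so its presence is common. Neither held GGCGCC (9.59% of all windows), GTCTAGAC (0.167%) or the TCF/LEF site (7.48%). Among the 6 members with a promoter in the table, *Bmpr1a* and *Bmpr2* each held 1 GGCGCC, and *Acvr1* and *Bmp4* held none of the motifs. No word of 12 bases was shared by the *Bmp8a* and *Bmp8b* promoters on either strand.

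In WT villi *Bmp2* and the *Bmp8* pair made up nearly all of the ligand RNA measured for the members, and in DM villi *Bmp2*, *Bmp8a* and *Bmp8b* were all lower while *Bmp3* was higher. The receptors differed by much smaller amounts. Of the 9 genes, 8 had enough counts for edgeR's quasi-likelihood test over 13346 genes (*Bmp4* did not), and 3 of them were called lower and 1 higher at an adjusted p under 0.05. Across all genes tested, 36.8% were called, 17.0% lower and 19.7% higher, and nothing is read from the members' count, since they were chosen with this comparison known. Groups that did not overlap were seen in 52.4% of all tested genes. In these bulk samples, fewer cells of a type and less RNA per cell cannot be told apart.

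*Bmp8a* encodes a ligand best known for its part in male germ cell development. Its normalized counts were 25.03, 26.49 and 26.43 CPM in the WT mice and 1.878, 1.809 and 1.899 CPM in the DM mice. The groups lay far apart, and the mice within each group were nearly equal. The mean was 26.0 ± 0.826 CPM in WT and 1.86 ± 0.0470 CPM in DM villi (SD, n = 3), a 14.0-fold difference and a log2 fold change (log2FC, DM minus WT) of -3.80 (standard error 0.15).

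*Bmp8b*, whose product also acts in germ cells and in brown fat thermogenesis, had 16.29, 14.74 and 17.94 CPM in the WT mice. In the DM mice it was left with 4, 8 and 5 counts, or 0.188, 0.371 and 0.237 CPM. Here the groups were even further apart, at 16.3 ± 1.60 against 0.265 ± 0.0948 CPM, with a log2FC of -5.91 (standard error 0.27). The 61.5-fold ratio of the means rests on these few counts, and the gene entered the test only through the WT group.

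The ratio of the *Bmp8* genes is given as a description too. In WT mice there were 0.557 to 0.679 counts of *Bmp8b* for each count of *Bmp8a*, and in DM mice 0.100 to 0.205. The DM ratios rest on 4, 8 and 5 counts of *Bmp8b*, so a few reads given to the wrong paralog would change them. The summed counts of both genes, to which such reads make no difference, had a log2FC of -4.31 (standard error 0.14).

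Tuft cell markers were lower in the same mice, with 0.0120% to 0.0171% of the counts in WT and 0.00145% to 0.00169% in DM villi. All 6 tested genes of the list were called lower, where 17.0% of all tested genes were called lower and 19.7% higher. Enteroendocrine markers took 0.0216% to 0.0335% and 0.0109% to 0.0119%, with 6 of 8 genes called lower and *Tac1* higher, beside the same shares of all tested genes. The part of these cells in the *Bmp8* values was not tested.

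Of 7 other genes tested within 100 kb of either *Bmp8* gene, 2 were called lower, 2 higher and 3 did not pass edgeR's test, beside 17.0% lower and 19.7% higher over all tested genes. Both lower genes lie inside an intron of a *Bmp8* gene, and both entered the test only through the WT group, so that no support is drawn from their calls. *Oxct2a*, a testis-type ketone-body transferase gene of 1760 bases inside *Bmp8a* on the same strand, had 33, 48 and 42 counts in WT and 8, 1 and 9 in DM mice (log2FC -2.82, standard error 0.62). *Oxct2b*, which sits in the same way inside *Bmp8b*, had 26, 21 and 16 counts in WT mice and none in the DM mice, which makes it at least 7.18-fold lower against a floor of 3 counts per library. Neither *Oxct2* gene shares an exonic base with its host, and reads from the host's introns cannot be told apart from theirs. *Gm17244*, on the opposite strand inside *Bmp8b*, shares 423 exonic bases with *Oxct2b* and had 6, 6 and 9 counts in WT and 0 in all DM mice, at least 2.44-fold lower against the same floor, and was not tested.

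Outside the *Bmp8* genes, *Trit1*, which encodes a tRNA-modifying enzyme and starts 88.57 kb before *Bmp8b*, had 4.49 ± 0.365 CPM in WT and 7.18 ± 0.475 CPM in DM villi (log2FC 0.68, adjusted p = 0.0236, edgeR). Its call was kept in only 8 of the 14 other fits and was lost without any 1 of 5 mice (all but WT mouse 1). *Pabpc4*, a poly(A)-binding protein gene between *Bmp8b* and *Bmp8a*, rose from 24.0 ± 1.41 to 33.3 ± 0.673 CPM (log2FC 0.47, adjusted p = 0.0113, edgeR). *Ppie*, a peptidyl-prolyl isomerase gene that runs against *Bmp8b* and shares 133 exonic bases with it, had 5.57 ± 0.220 and 6.82 ± 1.19 CPM (log2FC 0.29, adjusted p = 0.298, edgeR). *Macf1* and *Heyl* had log2FCs of -0.05 and -0.86 with adjusted p of 0.8 and 0.285 in edgeR's test. Since the strand setting of the counting is not given in the sources used here, reads over the shared *Ppie* bases, 3.43% of the exonic length of *Bmp8b*, and over those shared by *Oxct2b* and *Gm17244* are uncertain.

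**Figure D2:**
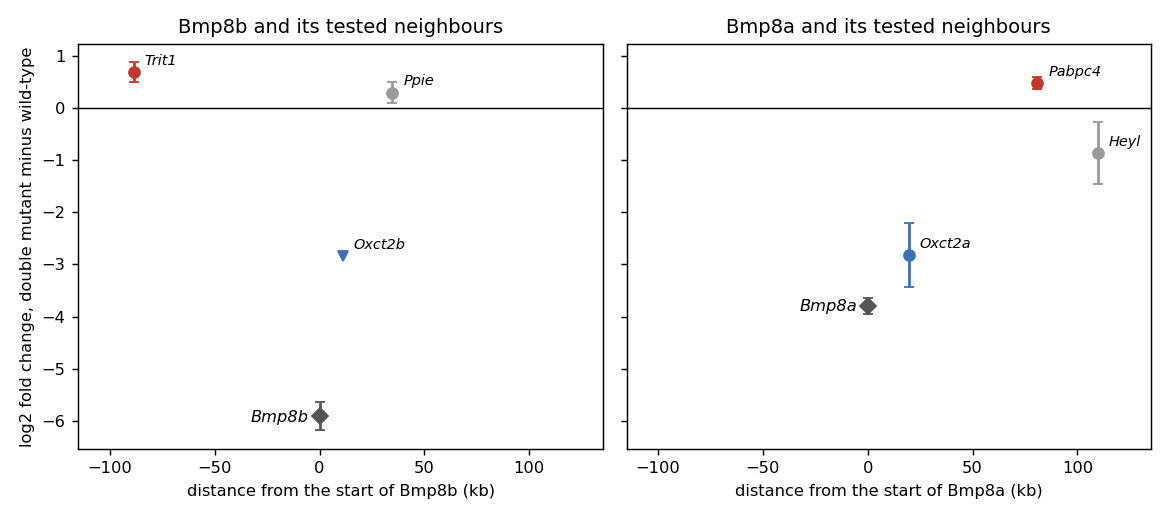
Log2FC (DM minus WT, with standard error) of *Bmp8b* and *Bmp8a* (diamonds) and of the tested genes around them, against the distance in kb from the start of each *Bmp8* gene, in its own direction of transcription to the right; red circles were higher, blue lower and grey did not pass edgeR's test. The blue triangle for *Oxct2b* is its bound from a floor of 3 counts, and *Macf1*, whose start is 341.1 kb away, is not drawn. The blue symbols are the genes in the *Bmp8* introns, and both genes called higher lie outside the *Bmp8* genes.

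*Bmp2* (ENSMUSG00000027358, mm9 chr2:133377895-133388621) encodes one of the ligands made by the epithelium itself, mostly by differentiated cells. It had 44.20, 68.49 and 44.83 CPM in WT mice and 14.41, 14.01 and 14.71 CPM in DM mice. All DM values were close together and under every WT value, of which mouse 2 had the highest. The means were 52.5 ± 13.9 and 14.4 ± 0.355 CPM (SD, n = 3), with a log2FC of -1.87 (standard error 0.18). *Krt20*, a marker of differentiated epithelium, was lower in the same mice (log2FC -0.97, adjusted p = 0.000806, edgeR), and its relation to *Bmp2* was not tested.

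*Bmp3* (ENSMUSG00000029335, mm9 chr5:99283458-99309979) moved the other way. Its product is the odd member of the family, known for opposing other BMPs at the type II receptors. It had 2.458, 3.482 and 0.607 CPM in WT mice and 20.84, 17.62 and 20.32 CPM in DM mice. Every DM mouse lay above every WT mouse, and the WT values varied more relative to their mean. The means were 2.18 ± 1.46 and 19.6 ± 1.73 CPM, a log2FC of 3.17 (standard error 0.50), which became 2.72 without WT mouse 3 and 3.64 without WT mouse 2.

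Some crypt stem cell markers were higher in the same mice as *Bmp3*. The list took 0.00251% to 0.0101% of the counts in WT and 0.0144% to 0.0205% in DM villi, and 3 of 6 were called, of which *Tnfrsf19* entered the test only through the DM group. DESeq2 called 2 of the 6, and 19.7% of all tested genes were higher. *Olfm4*, which did not pass, held most of the list's counts in DM mice. Whether *Bmp3* came from such cells was not tested.

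*Bmp7* (ENSMUSG00000008999, mm9 chr2:172693513-172765822) was rare, with 19, 6 and 2 counts in WT and 38, 14 and 27 counts in DM mice. WT mouse 1 lay above DM mouse 2, so the groups overlapped. The log2FC of 1.55 (standard error 0.68) did not pass the call rule with all mice. It passed without WT mouse 1, the only WT male, at 2.52, and with sex as a covariate, at 1.73, and it reached the filter's minimum in 3 DM mice and 1 WT mouse.

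*Bmp4* (ENSMUSG00000021835, mm9 chr14:47003195-47010344), the ligand typical of the mesenchyme beneath the epithelium, had 43, 3 and 0 counts in WT and 0, 7 and 24 counts in DM mice. The counts were scattered over both groups, and the gene failed the filter on low counts. Markers of fibroblasts summed to 47, 49 and 71 counts in WT and 90, 94 and 76 in DM mice over the 8 of 12 listed genes analysed here. *Vim* (35, 42 and 55 counts in WT mice) and *Pdgfrb* (12, 4 and 14) made up most of the sum in WT mice, and the defining markers *Pdgfra* and *Col1a2* were at 0 there. The part of fibroblast RNA in the *Bmp4* counts was not tested. Of the 2 genes of the list that could be tested, *Vim* and *Pdgfrb*, neither passed (0 at an unadjusted p under 0.05, 0 by DESeq2). Smooth muscle markers took 0.000380% to 0.000742% of the counts in WT and 0.000450% to 0.00141% in DM villi, and the 1 testable gene, *Tagln*, was not called (0 at an unadjusted p under 0.05, 0 by DESeq2). Endothelial markers took 0.000494% to 0.000735% and 0.000702% to 0.000828%. Of 5 tested genes 2 were called lower, *Prox1* and *Plvap*, which entered the test only through the WT group. *Tek*, *Pecam1* and *Lyve1* were not called, with log2FCs of 0.94, 0.79 and 0.48. Of these 5 genes, 3 had an unadjusted p under 0.05 and DESeq2 called 2. Immune markers took 0.00387% to 0.00739% and 0.00319% to 0.00462%, also with 2 of 5 called lower (*Ptprc* and *Cd8a*). All 5 had an unadjusted p under 0.05 and DESeq2 called 4, with *Itgam* higher (log2FC 0.61) and the others lower. Over all 13346 tested genes 17.0% were called lower and 19.7% higher, and 6221 had an unadjusted p under 0.05.

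**Figure D3:**
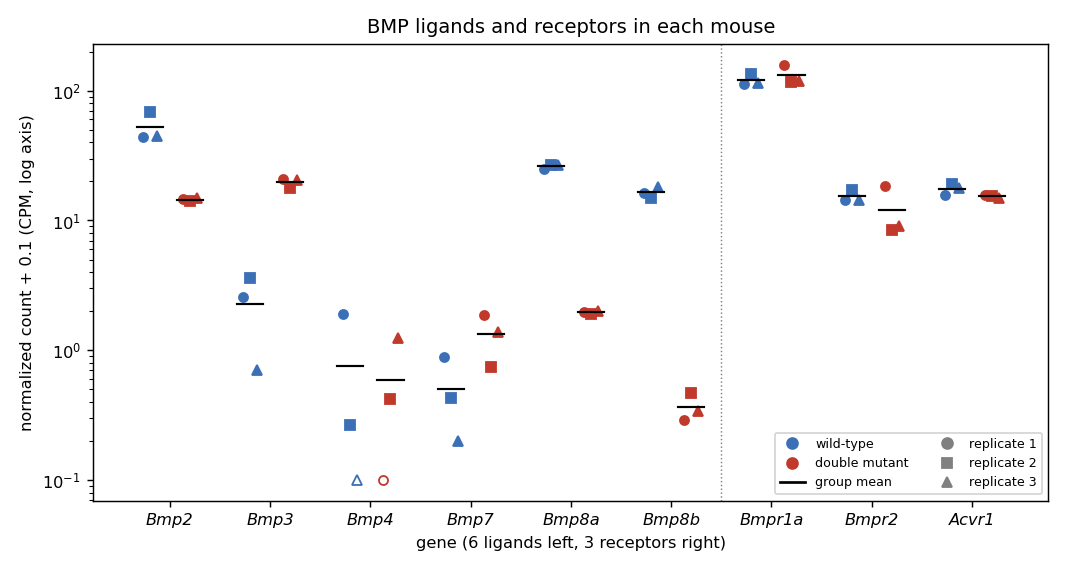
Normalized count (CPM with 0.1 added, log axis) of each ligand and receptor in each mouse; blue symbols are WT, red DM, shapes give the replicate number, short lines the group means and open symbols a count of 0. *Bmp8a*, *Bmp8b* and *Bmp2* were lower and *Bmp3* higher in every DM mouse, while *Bmp4* and *Bmp7* were sparse and overlapped.

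Per kilobase of exon, which allows genes to be compared, the order of the ligands changed with genotype. The WT level was 14.8 ± 3.90 CPM per kb for *Bmp2*, 10.8 ± 0.343 for *Bmp8a*, 4.21 ± 0.413 for *Bmp8b*, 0.701 ± 0.468 for *Bmp3*, 0.293 ± 0.445 for *Bmp4* and 0.101 ± 0.0876 for *Bmp7* (SD, n = 3 mice). In this order the spreads of *Bmp3*, *Bmp4* and *Bmp7* overlapped, and the 3 leading ligands were each apart in every mouse. In DM villi *Bmp3*, *Bmp2* and *Bmp8a* were apart from each other in every mouse, and *Bmp4* overlapped its neighbours. The order was *Bmp3* at 6.30 ± 0.555, *Bmp2* at 4.04 ± 0.0998, *Bmp8a* at 0.774 ± 0.0195, *Bmp7* at 0.308 ± 0.142, *Bmp4* at 0.219 ± 0.264 and *Bmp8b* at 0.0684 ± 0.0244 CPM per kb.

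Taken as a share of the 6 ligands per length, *Bmp8a* and *Bmp8b* together held 41.9% to 54.9% in WT mice and 6.89% to 7.88% in DM mice. *Bmp2* held 43.1% to 54.5% and 33.5% to 36.6%. *Bmp3* went from 0.685% to 3.16% up to 52.6% to 55.7%. The sum of the 6 ligands was 28.5 to 35.4 CPM per kb in WT and 10.8 to 12.4 CPM per kb in DM mice. It contains *Bmp8a* and *Bmp8b*, whose counts chose the group, so nothing is read from this difference. These are shares of RNA and say nothing of secreted protein.

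**Figure D4:**
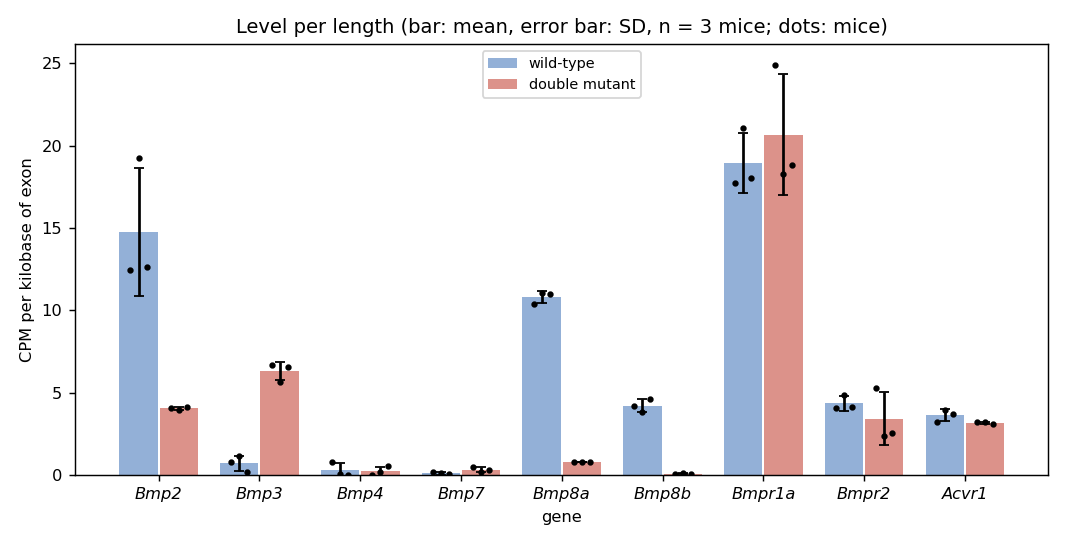
Level of each gene in CPM per kilobase of exon (linear axis from 0) in WT (blue) and DM (red) villi; bars are means, error bars the SD over 3 mice and dots the mice. *Bmp2* and *Bmp8a* led the ligands in WT villi and *Bmp3* in DM villi, and *Bmpr1a* was the highest of the member receptors in both.

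*Bmpr1a* (ENSMUSG00000021796, mm9 chr14:35223920-35316527), the type I receptor for BMP2 and BMP4, was the most abundant of the member receptors per length. It had 112.6, 133.7 and 114.5 CPM in WT and 158.3, 116.0 and 119.6 CPM in DM mice. The groups overlapped, with DM mouse 1 above all others. The log2FC was 0.13 (standard error 0.15), and -0.02 without that mouse.

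*Bmpr2* (ENSMUSG00000067336, mm9 chr1:59821481-59927703), the type II receptor specific to BMPs, had 14.29, 16.97 and 14.35 CPM in WT and 18.45, 8.348 and 8.971 CPM in DM mice. DM mouse 1 was again the highest of all 6 mice, while the others lay below every WT mouse. The log2FC was -0.35 (standard error 0.30) with all mice and did not pass the call rule. Without DM mouse 1 it was -0.80 and passed, so this library, the only DM male, decides the call.

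*Acvr1* (ENSMUSG00000026836, mm9 chr2:58241055-58419568) encodes ALK2, a type I receptor used by BMP7 and related ligands. It had 15.50, 19.09 and 17.84 CPM in WT and 15.49, 15.44 and 14.86 CPM in DM mice. The groups were apart by a hair, at 15.50 against 15.49 CPM, and 24.2% of all tested genes were lower in DM villi without overlap. The log2FC was -0.19 (standard error 0.14), which did not pass the call rule, and it was -0.0026 when scaled by library size alone.

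Per kilobase the WT levels of the receptors were 18.9 ± 1.84 CPM for *Bmpr1a*, 4.34 ± 0.437 for *Bmpr2* and 3.62 ± 0.378 for *Acvr1*. *Bmpr2* and *Acvr1* were apart by little, and their order turned when the length of the longest transcript was used, which gave *Acvr1* 5.31 CPM per kb.

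DM mouse 1, the highest of its group for *Bmpr1a* and *Bmpr2*, also had most smooth muscle marker counts. They took 0.00141% of its counts against 0.000380% to 0.000742% in the other 5 mice, and *Myh11* had 47 counts there against 0 to 2. Genes antisense to *Bmpr1a*, *Acvr1* and *Bmp4* (*Gm17110*, *Gm17409* and *Gm15222*) had at most 3 counts in any mouse. The part of smooth muscle RNA in the receptor values was not tested.

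No other receptor or co-receptor was called. Of the 11 genes listed, 8 were in the table, 6 were tested and none passed edgeR's test (0 also at an unadjusted p under 0.05, and 0 by DESeq2), with a median log2FC of -0.13 beside 0.02 for all genes tested. The furthest from 0 was *Tgfbr3*, a co-receptor also known as betaglycan, at a log2FC of -1.46 (standard error 0.95). *Acvr2a*, an activin type II receptor that BMPs also use, had 57.94, 65.88 and 51.25 CPM in WT and 57.60, 35.57 and 38.26 CPM in DM mice, with DM mouse 1 once more the highest of its group (log2FC -0.41, adjusted p = 0.13, edgeR). Other ligands of the family were almost absent: of 13 listed BMP and GDF genes 5 were in the table, and the 4 not tested had at most 16 counts in any mouse. The tested one, *Gdf9*, had a log2FC of 0.52 (adjusted p = 0.369, edgeR).

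Among the proteases that process the ligands, all called genes were lower. Furin, PACE4 (*Pcsk6*), PC5 (*Pcsk5*) and PC7 (*Pcsk7*) are proprotein convertases, of the kind that cut BMP precursors into active ligand, and *Bmp1*, in spite of its name, encodes a protease that cleaves procollagen and the antagonist chordin. Of 5 tested genes 4 fell and none rose by edgeR's test, with a median log2FC of -0.76, where 17.0% of all tested genes were lower and 19.7% higher. *Pcsk6* had 70.90, 39.60 and 46.91 CPM in WT and 8.262, 9.137 and 14.86 CPM in DM mice (log2FC -2.29, standard error 0.30, adjusted p = 0.00116, edgeR). The groups did not overlap, although WT mouse 1 was well above the others.

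*Furin* had 174.3, 203.4 and 191.7 CPM in WT and 105.4, 110.6 and 120.3 CPM in DM mice, a log2FC of -0.76 (adjusted p = 0.0013, edgeR). *Bmp1* fell by 1.02 on the log2 scale (adjusted p = 0.0021, edgeR), from 79.3 ± 9.63 to 39.2 ± 7.76 CPM. *Pcsk7* fell by 0.51 (adjusted p = 0.0088, edgeR), a call lost when scaled by library size alone. *Pcsk5* had 229 ± 23.9 and 191 ± 22.3 CPM and did not pass (adjusted p = 0.148, edgeR).

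Among secreted antagonists the share of calls was near that of all genes (36.8%). Of 18 listed genes 8 were in the table and 5 were tested, of which 1 was higher and 1 lower, and the 3 not tested had at most 11 counts in any mouse. *Crim1*, a membrane protein that binds BMPs, fell from 92.8 ± 10.2 to 50.4 ± 7.64 CPM (log2FC -0.88, adjusted p = 0.00236, edgeR). *Twsg1*, which helps or hinders BMPs with chordin, rose from 24.1 ± 2.72 to 33.5 ± 3.92 CPM (log2FC 0.48, adjusted p = 0.0278, edgeR), and this call was lost in 5 of the 14 other fits, among them those without WT mouse 1, WT mouse 3, DM mouse 1 or DM mouse 3.

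Inside the cell, the inhibitory SMADs, which are also targets and stand in both lists, fell. Of 14 tested SMADs and regulators 6 were lower and 1 higher (median log2FC -0.30), beside 17.0% lower and 19.7% higher over all tested genes. The 6 include *Smad4*, which was deleted by design, so its call was fixed in advance. *Tob1*, whose product represses SMAD activity, fell from 338 ± 7.77 to 225 ± 16.1 CPM (adjusted p = 0.00316, edgeR). *Smurf1* and *Ppm1a*, a ubiquitin ligase and a phosphatase that act on SMADs, kept their lower calls in only 7 and 8 of the 14 other fits. *Smad6*, which blocks type I receptors, had 32.91, 41.62 and 30.18 CPM in WT and 1.361, 0.649 and 0.475 CPM in DM mice (log2FC -5.39, standard error 0.34, adjusted p = 5.49e-05, edgeR). *Smad7* fell by 2.17 on the log2 scale and the deleted *Smad4* by 2.22, with adjusted p of 0.000147 and 0.000145 from the same edgeR test. *Smad1*, which the receptors phosphorylate, was the higher gene, at 49.5 ± 5.55 against 64.1 ± 3.91 CPM (log2FC 0.37, adjusted p = 0.0406, edgeR), but it passed in only 6 of the 14 other fits and was lost without any 1 of 5 mice (all but WT mouse 2). Of the 7 tested target genes 5 were lower, namely *Id1*, *Id2*, *Id3*, *Smad6* and *Smad7*, and *Id4* and *Bambi* did not pass. The median log2FC was -2.94, beside 0.02 for all genes tested, and the targets not tested had at most 12 counts in any mouse. *Id1* and *Id2* encode inhibitors of bHLH transcription factors. *Id1* fell from 98.6 ± 5.01 to 11.6 ± 2.71 CPM and *Id2* from 35.2 ± 0.695 to 1.90 ± 0.752 CPM (adjusted p = 2.96e-05 and 3.84e-05, edgeR).

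**Figure D5:**
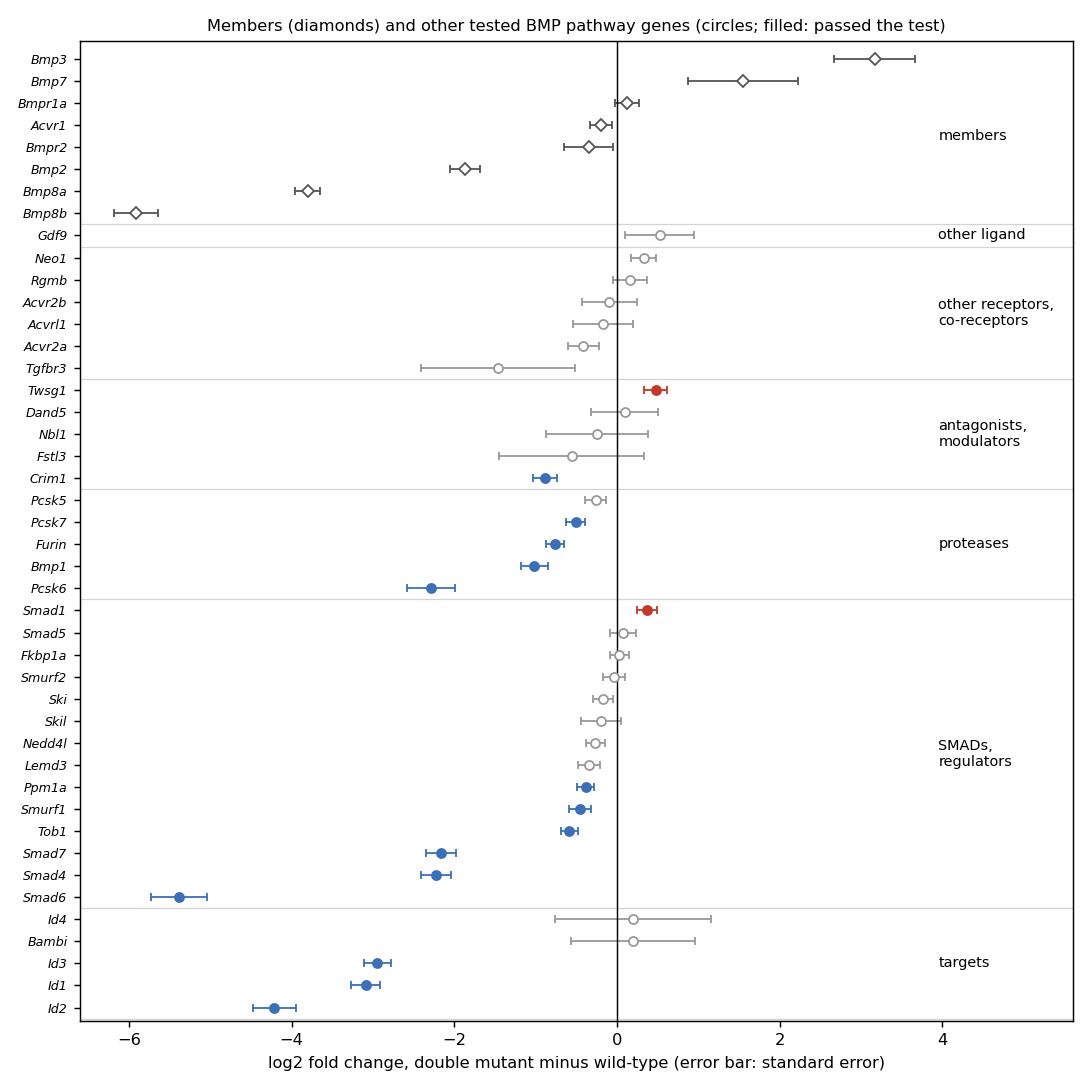
Log2FC (DM minus WT) with its standard error for the members (diamonds, no test shown) and the other tested genes of the pathway by role (circles, filled red or blue where higher or lower by edgeR's test, grey where not); genes in more than one list are drawn once. The ligands spread from -5.91 for *Bmp8b* to 3.17 for *Bmp3*, the 3 member receptors lie between -0.35 and 0.13, and 4 of 5 proteases lie below 0 past the threshold.

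Pearson's r of log2 CPM between *Bmp8a* and *Bmp8b* was 0.996 over the 6 mice, which share their libraries and fall into 2 groups, so that r is carried by the difference between groups. Closest to *Bmp8a* were *2010109I03Rik* (0.999), *Ralgds* (0.999) and *4933404O12Rik* (0.998). Closest to *Bmp8b* were *Id3* (0.999), *Duox2* (0.999), a peroxide-producing oxidase of the epithelial surface, and again *Ralgds* (0.998). An r above that of the pair was reached by 24 genes for *Bmp8a* and 25 for *Bmp8b*, and an r over 0.95 by 918 genes for *Bmp8a* and 784 for *Bmp8b*, and no p is given. *Id3* had 103.9, 88.83 and 106.5 CPM in WT and 11.03, 15.58 and 12.25 CPM in DM mice.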

How the data were processed

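Polyadenylated RNA from villus epithelium of 6 mice was sequenced as paired reads of 150 bases, from samples with an RNA integrity number above 4. Per the labels, the authors used HISAT2 for alignment to mm9 and featureCounts for counting, and the deposited values are raw counts, 1 column per mouse, not normalized. The strand setting, the annotation and the rule for reads matching several genes are not given in the sources used here. Of 20073 Ensembl identifiers, 20032 were found in GENCODE vM1 (mm9), and 336 further rows name transcripts outside it.

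Here, genes kept by filterByExpr (13346) were scaled by TMM and compared with edgeR 4.0.16 (glmQLFit robust, glmQLFTest; R 4.3.3), adjusted by Benjamini-Hochberg over all tested genes, with calls at an adjusted p under 0.05. Log2FC is DM (double mutant) minus WT (wild-type), and its standard error is its size over the square root of F. The scripts were tested on simulated counts. Alternatives were DESeq2 1.42.0, RLE factors, library size alone, limma-voom (limma 3.58.1), no filter, at least 10 counts in 3 mice, sex as covariate, a block for replicate number, a prior count of 2, summed *Bmp8* counts and each mouse left out.

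The members and lists were chosen with earlier results of these data known. Named are all members, *Smad4*, *Ctnnb1*, called pathway genes (where a list had more than 4, the 3 largest changes each way), tested genes within 100 kb of *Bmp8a* or *Bmp8b*, and the 3 genes most correlated with each; the other called SMAD regulators and targets, a few uncalled pathway genes and the markers fall outside this rule and were named after their values were seen. Same-numbered mice did not deviate together (r across genes -0.109 to 0.0224), so numbers were not taken as pairs. Mice are separate animals, and with 3 in each group precision is limited by their number.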

Additional observations from a re-analysis of the deposited data

How the results depend on the processing

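*Bmp8a* and *Bmp8b* were chosen for their difference in these counts, so the refits say nothing of its stability and are given as values. Leaving out 1 mouse gave -1.98 to -1.63 for *Bmp2*, 2.72 to 3.64 for *Bmp3*, -3.83 to -3.78 for *Bmp8a*, -6.23 to -5.71 for *Bmp8b*, 1.11 to 2.52 for *Bmp7*, -0.02 to 0.21 for *Bmpr1a*, -0.80 to -0.15 for *Bmpr2* and -0.27 to -0.13 for *Acvr1*. *Bmp7* passed with sex as a covariate (1.73), which took the higher members from 1 to 2, and without wild-type mouse 1. *Bmpr1a* turned to -0.021 and *Bmpr2* passed at -0.80 without double mutant mouse 1. The cause was not tested. *Bmp4* gave -0.44 with no filter (standard error 1.73) and -0.44 with DESeq2, and -1.04 to 0.13 in the 4 fits with a mouse left out that held it, turning to 0.13 without double mutant mouse 1.

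Other pathway genes called higher numbered 2, but 1 with DESeq2, 1 with RLE factors, 0 with the replicate block and 0 to 2 with a mouse left out, while those called lower were 14, and 12 to 16 with a mouse left out. Library size alone gave 3 higher and 11 lower. Of these 16 genes, the deleted *Smad4* among them, 11 kept their call in all 14 alternatives and none reversed. With library size alone, the median of all genes moved from 0.02 to 0.22 on the log2 scale, and calls over all genes went from 2632 higher and 2273 lower to 3732 and 1425. With the replicate block there were 2084 and 1750, and no member's call changed, although the numbers are no pairing in the design. Leaving out a mouse gave 1812 to 2783 higher and 1630 to 2361 lower genes. Depth limits *Bmp4*, *Bmp7* and the double mutant value of *Bmp8b* most. Per length, the longest transcript moved *Bmp8b* to 5.55 and *Acvr1* to 5.31 CPM per kb.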
